A study of Mus musculus with 840 samples.

Results

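The D-type cyclins, their kinase partners and the inhibitors of those kinases were followed as 10 genes, Ccnd1, Ccnd2, Ccnd3, Cdk4, Cdk6, Cdkn1a, Cdkn1b, Cdkn1c, Cdkn2a and Cdkn2b, out of 39154 genes with a row in the count tables. The members were taken by gene symbol, and each symbol matched exactly 1 Ensembl gene. Single mammary epithelial cells had been sorted from female mice carrying the Rosa-N1ICD-IRES-nGFP allele, which after Cre recombination makes the Notch1 intracellular domain (N1ICD) together with a nuclear GFP. Recombination was driven by SMACreERT2 or K5CreERT2, tamoxifen-inducible Cre lines active in basal cells, and tamoxifen was given on postnatal day 21. GFP+ cells were collected 1, 3, 4 or 6 weeks later in the SMACre line and 3 weeks later in the K5Cre line, from the basal (EpCAM low, CD49f high), intermediate (EpCAM and CD49f medium) and luminal (EpCAM high, CD49f low) sorting gates, after CD31-, Ter119- and CD45-positive cells had been removed. GFP- cells of the same mice, which carry the same alleles and had the same tamoxifen but show no recombined reporter, served as the comparison. Because both Cre drivers act in basal cells, the study takes a GFP+ cell in the luminal gate to descend from a recombined basal cell, whereas a GFP- luminal cell can be a native luminal cell or any cell in which the allele did not recombine. Each plate held the cells of 1 or 2 mice of its own, so the plate was the unit of replication, and in bulk sums of cells fewer expressing cells and less RNA per cell cannot be told apart. For K5Cre plate B the sample name gives 6 weeks and the details give 3 weeks. The plate list in the study's supplement shows no K5Cre plate with the longer chase, and the plate is called a 3-week plate here. That list departs from the deposited labels in the gates. On the SMACre 1-week and 4-week plates and 2 SMACre 3-week plates its luminal and intermediate GFP+ counts are exchanged or nearly so. By the labels, 11 luminal and 6 intermediate GFP+ cells were sorted on the 1-week plate. The list also names no intermediate GFP- cells. The deposited labels set the gates here.

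D-type cyclins bind CDK4 and CDK6, and the active kinases phosphorylate the retinoblastoma protein, which lets E2F factors turn on the genes of DNA replication. The 3 D cyclins are encoded by separate genes and differ in where they are made, and cyclin D1, the product of Ccnd1, is known for its part in the growth of the mammary alveoli. INK4 proteins, p16 from Cdkn2a and p15 from Cdkn2b, bind CDK4 and CDK6 and keep cyclin D away, whereas the CIP/KIP proteins, p21 from Cdkn1a, p27 from Cdkn1b and p57 from Cdkn1c, bind cyclin-CDK complexes and block CDK2 most strongly. Cdkn2a also encodes p19Arf, which acts on p53 through Mdm2, and the 2 products share exons, so a gene count does not tell them apart.

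The libraries were read in 50-base reads, so each member can be counted apart from its relatives only where its transcript differs from theirs. The most alike 50-base coding stretches of Ccnd1 and Ccnd2 are shown because the opposite patterns of these genes rest on this separation. The sequences are from the GRCm38 gene models, written 5′ to 3′ on the coding strand, and capitals mark the bases that differ between them. The Ccnd1 stretch (chr7:144938077-144939519, minus strand) and the Ccnd2 stretch (chr6:127148854-127150605, minus strand) both join exons 1 and 2 across an intron.
Ccnd1: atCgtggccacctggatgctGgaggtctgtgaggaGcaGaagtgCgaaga
Ccnd2: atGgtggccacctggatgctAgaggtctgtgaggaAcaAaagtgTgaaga

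At their most alike, Ccnd1 and Ccnd2 differed at 5 of 50 bases, and none of the 10 genes held a 50-base stretch identical to one of another member. Stretches shared with other genes were mostly on the opposite strand. Ccnd1 shared 1100 exonic bases with LTO1 (23.4% of its exonic length), Cdk4 shared 641 with Tspan31 (19.7%) and Cdkn1c shared 30.7% of its exonic length with Gm44732. Whether counting used strand is not given in the sources used here, so reads in these stretches cannot be assigned to one gene with certainty.

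Of 840 cells in the tables, 744 remained without the repeat run of 1 plate, and 68.7% of these passed the filters: 100 basal GFP+, 120 luminal GFP+, 17 basal GFP-, 12 intermediate GFP- and 39 luminal GFP- cells, with the largest group, 43.6% of the kept cells, in intermediate GFP+ (60, 61 and 63 cells on 3 plates and 3 to 19 on 4 others). They held 103081 to 3363298 reads on genes (median 652124), with medians of 402767, 397250.5 and 1499629.5 in the 3 sequencing batches. The gates carried the markers of their labels: the summed level of 10 basal markers was 3571 to 22724 counts per 1000000 reads (CPM) on the plates in basal GFP+ and 76.9 to 1932 in luminal GFP+ cells, and 10 markers of hormone-receptor-negative (HR-neg) luminal cells ran from 6853 to 15913 CPM in luminal GFP+ and from 328 to 2225 in basal GFP+ cells. Intermediate GFP+ cells held basal markers at 3120 to 16603 CPM and HR-neg markers at 1165 to 2274. Notch1, on which reads from the N1ICD transgene can fall, was at 96.98 to 809.8 CPM in luminal GFP+ and 87.6 to 574.7 in luminal GFP- cells, so its level did not separate the labels. One library group stood apart: in the 8 luminal GFP+ cells of the SMACre 1-week plate, 9 salivary markers summed to 37323 CPM, against at most 529.8 in any other group. The intermediate GFP- cells of K5Cre plate B held immune markers at 2014 CPM, and the basal and intermediate GFP+ cells of the 1-week plate held endothelial markers at 543 and 1162 CPM. Their part in the results was not tested, and values without the 1-week plate are given beside the main ones.

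Ccnd1 had its highest levels in the luminal gate and Ccnd2 in the basal and intermediate gates. Over plates, the Ccnd1 level was 54.9 ± 63.4 CPM (SD, n = 5 plates) in basal GFP+, 97.1 ± 116.6 (n = 7) in intermediate GFP+ and 447 ± 264.8 (n = 6) in luminal GFP+ cells. The Ccnd2 level ran the other way, at 140 ± 111.1, 87.2 ± 83.2 and 11.4 ± 17.4 CPM in the same groups. Ccnd3 was alike in the gates, at 48.3 ± 17.7, 58.1 ± 21.9 and 57.6 ± 20.8 CPM. Cdkn1a was at 350 ± 75.8 CPM in basal GFP+, 588 ± 187.4 in intermediate GFP+ and 170.6 ± 39.8 in luminal GFP+ cells.

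**Figure D1:**
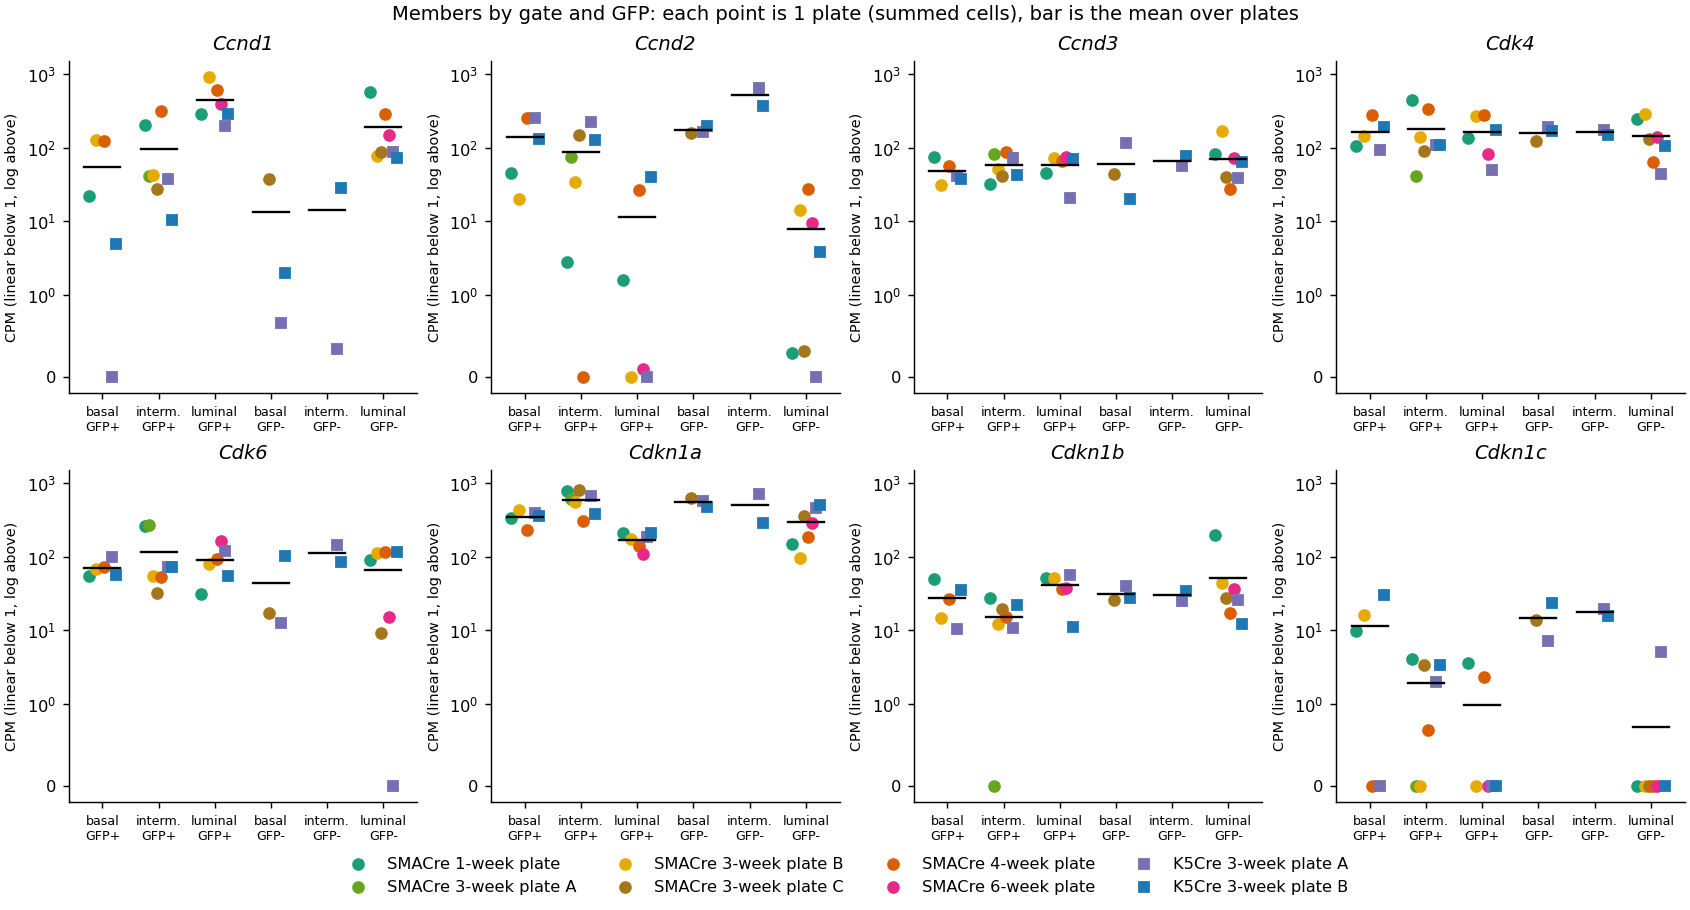
Counts per 1000000 reads (CPM, linear below 1 and logarithmic above) of 8 members in the 6 groups of gate and GFP; each point is the summed kept cells of 1 plate with at least 3 cells, circles are SMACre and squares K5Cre plates, and the line is the mean over plates. Ccnd1 was at 195.2 to 900 CPM in luminal GFP+ cells and at most 125.4 in basal GFP+ cells, whereas Ccnd2 was at 19.9 to 254.6 CPM in basal GFP+ cells and at most 39.7 in luminal GFP+ cells.

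Luminal GFP+ cells were compared with basal GFP+ cells on the 5 plates that held both, to ask which members differ between the ends of the basal-to-luminal conversion. In basal GFP+ cells Ccnd1 was at 0, 4.88, 21.97, 125.4 and 121.998 CPM on K5Cre plates A and B and the SMACre 1-week, 3-week B and 4-week plates. In luminal GFP+ cells of the same plates it was at 195.2, 289.03, 284.9, 900 and 615 CPM, and 1 cell held 55.8, 56.97, 68.9, 37.3 and 8.76% of the reads behind these values. Luminal cells were higher on 5 of 5 plates and the groups did not overlap, a separation in this direction that 2.72% of the 12091 genes tested showed. The edgeR log2 fold change was 4.29 ± 1.17 (SE), a 19.5-fold difference, with p = 0.0064 and an adjusted p of 0.179, so the difference did not pass the threshold. Without the SMACre 1-week plate the log2 fold change was 4.57 (edgeR adjusted p = 0.370).

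Ccnd2 was at 254.6, 130.5, 44.8, 19.9 and 252.7 CPM in basal GFP+ cells on those plates. In luminal GFP+ cells it was at 0, 39.7, 1.59, 0 and 26.8 CPM. Luminal cells were lower on 5 of 5 plates, as were 6.42% of the genes tested, and the highest luminal value lay above the lowest basal one, so the groups overlapped. The luminal values came from very few cells: on K5Cre plate B all 375 reads of Ccnd2 were in 1 of 5 cells, and on the 4-week plate 99.6% of 492 reads were in 1 of 51 cells. The edgeR log2 fold change was -5.04 ± 1.41, with p = 0.0073 and an adjusted p of 0.185, and its size depends in part on how the 2 plates without a read are treated. Without the 1-week plate it was -5.12 (edgeR adjusted p = 0.396).

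Cdkn1a, which encodes p21, an inhibitor that p53 and other signals induce, was at 397, 361, 340, 426 and 228.5 CPM in basal GFP+ and at 187.4, 206.9, 208.1, 174.05 and 139.1 CPM in luminal GFP+ cells on the same plates. Every luminal value lay below every basal one, as for 1.96% of the genes tested. The edgeR log2 fold change was -1.04 ± 0.25, a 2.05-fold difference, with p = 0.0030 and an adjusted p of 0.134, and without the 1-week plate it was -1.11 (adjusted p = 0.278). The other members did not separate these gates: the log2 fold changes were -0.01 ± 0.45 for Ccnd3, -0.06 ± 0.30 for Cdk4, -0.11 ± 0.32 for Cdk6 and 0.51 ± 0.71 for Cdkn1b. Cdkn1c was read in few cells and its estimate, -3.87 ± 3.87, was no larger than its error. Ccnd3, Cdk4 and Cdk6 had a difference of the other sign under some alternatives.

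In the edgeR test, none of the 8 members that passed the filter on low counts had an adjusted p under 0.05, against 0.562% of the 12091 genes (26 higher and 42 lower in luminal cells). At an unadjusted p under 0.05, 3 members (Ccnd1, Ccnd2 and Cdkn1a) stood beside 11.5% of all genes. The median log2 fold change of the 8 members was -0.09, and that of all genes tested was -0.04. The tools disagreed on the calls. DESeq2, which called 11.3% of the genes, gave adjusted p-values of 2.79e-05 for Ccnd1, 1.47e-05 for Ccnd2 and 0.00629 for Cdkn1a. Ccnd1 and Ccnd2 also passed in edgeR without the filter on low counts (1.59e-13 and 4.86e-10, with 3.08% of genes called), with each cell thinned to 100000 reads (0.0173 and 0.0348, 2.96% called) and in limma with each cell weighted equally (0.00713 and 0.0197, 3.13% called), and Cdkn1a did not pass in these 3.

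**Figure D2:**
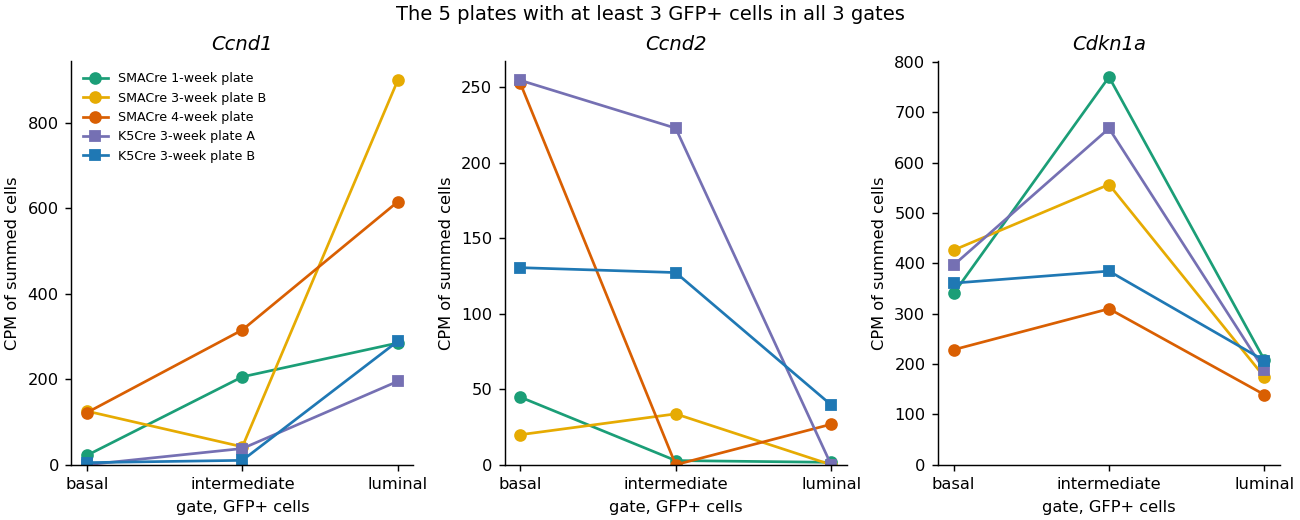
Counts per 1000000 reads (CPM) of Ccnd1, Ccnd2 and Cdkn1a in the basal, intermediate and luminal gates for GFP+ cells of the 5 plates with at least 3 cells in each gate; 1 line is 1 plate. From the intermediate to the luminal gate Ccnd1 was higher and Cdkn1a lower on all 5 lines, while the lines of Ccnd2 differed in shape.

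The intermediate gate was compared with the basal gate on 5 plates, as the first step between them. Ccnd1 in intermediate GFP+ cells was at 37.9, 10.2, 205.8, 41.95 and 316 CPM on K5Cre plates A and B and the SMACre 1-week, 3-week B and 4-week plates, and at 40.8 and 27.6 CPM on the SMACre 3-week plates A and C, which had too few or no basal GFP+ cells to compare. Against basal cells it was higher on 4 of 5 plates, with an edgeR log2 fold change of 1.99 ± 1.29 (adjusted p = 1.00). Ccnd2 was at 222.9, 127.3, 2.75, 33.7 and 0 CPM on the 5 plates and at 75.5 and 148.7 CPM on SMACre 3-week plates A and C. The plates differed widely: the 19 intermediate cells of the 4-week plate held no Ccnd2 read, where 3 reads would be 0.407 CPM, while those of K5Cre plate A held it near the basal level of their plate. The difference from basal cells was -1.57 ± 1.56 (edgeR adjusted p = 1.00). Without the 1-week plate the log2 fold changes were 1.43 for Ccnd1 and -0.84 for Ccnd2.

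Cdkn1a was higher in intermediate than in basal GFP+ cells on 5 of 5 plates, as were 2.68% of the 12348 genes tested. It was at 668, 385, 770, 557 and 310 CPM on the 5 plates and at 617 and 813 CPM on SMACre 3-week plates A and C. The log2 fold change was 0.57 ± 0.26, with an edgeR p of 0.061 and an adjusted p of 1.00, and it was 0.40 without the 1-week plate. On K5Cre plate B the 2 levels were close, at 385 against 361 CPM. No member, and 0% of the genes tested, passed the edgeR test between these gates, where 1.48% had an unadjusted p under 0.05. DESeq2 called 60 genes and no member among them.

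From the intermediate to the luminal gate Cdkn1a had the smallest edgeR p of the members, 0.00058, with an adjusted p of 0.167. Its log2 fold change was -1.61 ± 0.30, a 3.05-fold lower level, and the luminal values (139.1 to 208.1 CPM) lay below all intermediate ones (310 to 770 CPM), as for 0.935% of the 11979 genes tested. Ccnd1 was 5.59-fold higher in luminal cells (log2 fold change 2.48 ± 0.77, edgeR p = 0.012, adjusted p = 0.477), on 5 of 5 plates, as were 7.5% of the genes. Ccnd2 had a difference of -2.93 ± 2.87 and Cdkn1b of 1.06 ± 0.77. The edgeR test called 0% of the genes here and 6.86% had an unadjusted p under 0.05. DESeq2 (6.67% called) gave adjusted p-values of 0.000714 for Cdkn1a and 0.0115 for Ccnd1, and edgeR without the filter on low counts (1.01% called) gave 0.0102 and 0.000548. Without the SMACre 1-week plate, where the intermediate gate held 4 cells, the edgeR log2 fold changes were -1.50 for Cdkn1a (adjusted p = 0.151) and 3.08 for Ccnd1 (adjusted p = 0.229). The 3 gate comparisons share samples and are not independent of each other.

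**Figure D3:**
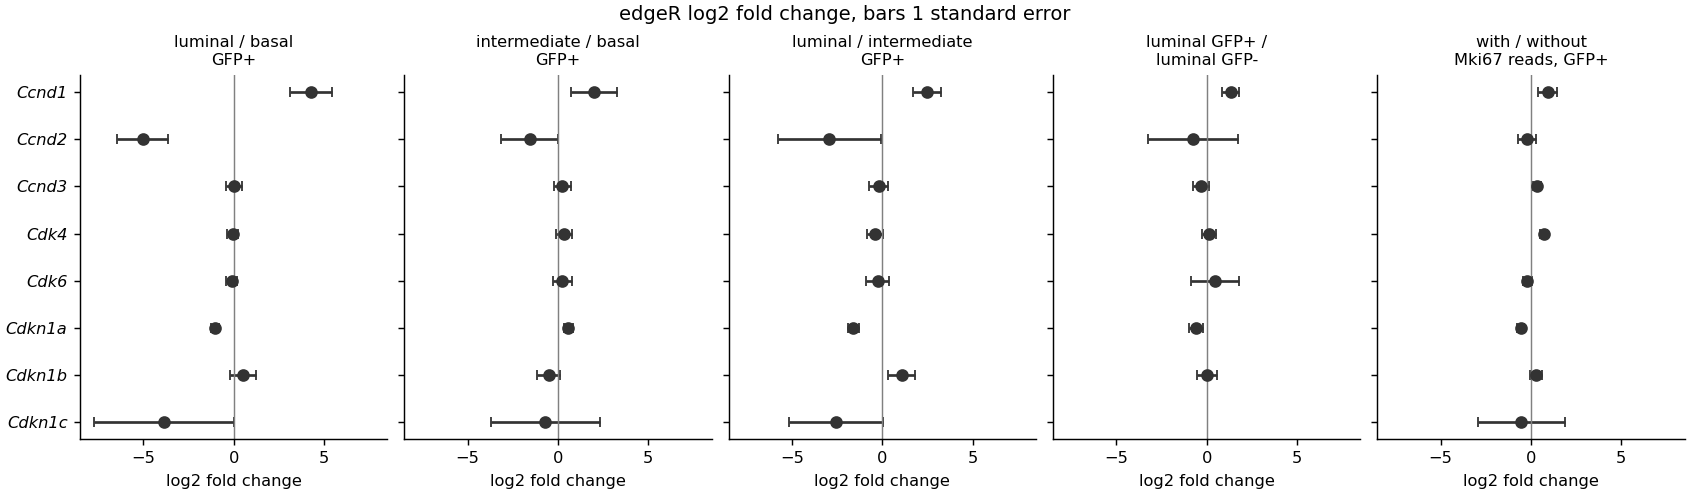
Log2 fold changes from edgeR (x axis) with bars of 1 standard error for the members that passed the filter on low counts in each of 5 comparisons. Ccnd1 is at 4.29 ± 1.17 and Ccnd2 at -5.04 ± 1.41 in luminal against basal GFP+ cells, Cdk4 is at 0.70 ± 0.20 in cells with Mki67 reads, and no point passed an adjusted p of 0.05.

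Luminal GFP+ cells were set against luminal GFP- cells on 6 plates, to compare luminal-gate cells with and without recombination. Ccnd1 was at 195.2, 289.03, 284.9, 900, 615 and 396 CPM in GFP+ and at 86.3, 73.2, 574, 76.1, 286.97 and 150 CPM in GFP- cells on K5Cre plates A and B and the SMACre 1-week, 3-week B, 4-week and 6-week plates. GFP+ cells were higher on 5 of 6 plates, and the 1-week plate went the other way. The edgeR log2 fold change was 1.32 ± 0.48 (p = 0.020, adjusted p = 1.00), and 1.75 without the 1-week plate. The median over all 10929 genes tested was 0.27 in this comparison, and that of the 7 members tested was 0.03.

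Cdkn1a was at 187.4, 206.9, 208.1, 174.05, 139.1 and 108.1 CPM in GFP+ and at 466, 505.4, 147.97, 95.3, 182.9 and 287.6 CPM in GFP- cells on the same plates. GFP+ cells were lower on 4 of 6 plates, and the GFP- values spread far more than the GFP+ values. The edgeR log2 fold change was -0.58 ± 0.40 (adjusted p = 1.00), and -0.80 without the 1-week plate (adjusted p = 0.995). Ccnd2 was low in both groups, with 11.4 ± 17.4 CPM (n = 6) in GFP+ and 9.16 ± 10.4 in GFP- cells. In this comparison 0% of the genes passed the edgeR test and 3.99% had an unadjusted p under 0.05, among 7 members tested only Ccnd1. DESeq2 called 2.14% of the genes and no member. Other lists were set beside this comparison, and the first of them followed no single direction over the plates. The summed level of 10 markers of hormone-receptor-positive luminal cells was 2203, 1365, 2671, 700.6, 1117 and 638 CPM in GFP+ and 9162, 2501, 2729, 544, 195.3 and 3889 CPM in GFP- cells on the 6 plates. The 10 dissociation genes were higher in GFP- cells on 5 of 6 plates by their summed level (median log2 fold change -0.80), and the proliferation genes were higher in GFP+ cells on 5 of 6 plates (median 1.85 over the 11 tested). In the edgeR test 0 genes of these 3 lists were called, and their part in the Ccnd1 and Cdkn1a values was not tested.

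Basal GFP- cells were compared with basal GFP+ cells as values alone, since only the K5Cre plates held both. Ccnd1 was at 0.659 and 2.01 CPM in GFP- and at 0 and 4.88 CPM in GFP+ cells on K5Cre plates A and B, and Ccnd2 was at 163.3 and 196.98 CPM in GFP- against 254.6 and 130.5 CPM in GFP+ cells. Cdkn1a was at 577 and 479 CPM in GFP- against 397 and 361 CPM in GFP+ cells. In the intermediate gate of these plates Ccnd2 was at 649 and 373 CPM in GFP- against 222.9 and 127.3 CPM in GFP+ cells, the highest of any plate and group with at least 3 cells, from 6 cells each.

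Per transcript length, the order of the members changed with the gate. Levels were divided by the exonic length of each gene (CPM per kilobase, RPKM, which carries the length of the whole gene model). Cdkn1a had the highest mean in basal GFP+ (98.6 ± 21.3 RPKM) and intermediate GFP+ cells (165.6 ± 52.7), with Cdk4, the kinase partner, next at 49.7 ± 23.2 and 55.9 ± 46.3. In luminal GFP+ cells Ccnd1 had the highest mean (94.9 ± 56.2 RPKM), followed by Cdk4 (50.8 ± 29.1) and Cdkn1a (48.01 ± 11.2), which did not differ beyond their spread. Cdk6, Ccnd3 and Cdkn1b had means of 3.37 to 8.94 RPKM in the 3 GFP+ groups.

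The D cyclins together amounted to 32.1 ± 16.6 RPKM in basal GFP+ (n = 5), 36.5 ± 20.7 in intermediate GFP+ (n = 7) and 102.6 ± 57.6 in luminal GFP+ cells (n = 6). In the luminal gate Ccnd1 made up 91.6 ± 4.3% of the RPKM in GFP+ cells. In luminal GFP- cells it made up 76.1 ± 16.7% (n = 7), with a lowest plate value of 43.8%, and Ccnd3 made up 22.03 ± 15.9%, with a highest plate value of 52.1%. In basal GFP+ cells Ccnd2 made up 47.2 ± 32.3% and Ccnd1 31.5 ± 33.3%, and the share of Ccnd1 ran from 0 to 82.4% between plates. Ccnd3 made up 21.3 ± 15.4% in basal GFP+, 21.4 ± 9.9% in intermediate GFP+ and 7.07 ± 2.57% in luminal GFP+ cells, so its share was lower in the luminal gate while its own level was alike.

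Reads of Ccnd1 and Ccnd2 were also counted within cells, as a description. With every cell thinned to 100000 reads, 86.7% of 120 luminal GFP+ cells had reads of Ccnd1 alone, 3 cells of both, 1 of Ccnd2 alone and 12 of neither. Of 100 basal GFP+ cells, 22 had Ccnd1 alone, 21 Ccnd2 alone, 8 both and 49 neither. Of the intermediate GFP+ cells, 52 had Ccnd1 alone, 91 Ccnd2 alone, 12 both and 68 neither. The intermediate gate differed between plates: on the SMACre 4-week plate 17 of 19 cells had Ccnd1 alone and none had Ccnd2, whereas on K5Cre plates A and B 30 of 63 and 36 of 61 cells had Ccnd2 alone and 10 and 4 had Ccnd1 alone. Cells of 1 plate are not replicates, and the 4-week plate was the only one of its chase time, so chase, batch and plate cannot be told apart. The intermediate cells of the 4-week plate also held the highest summed basal markers of that gate, 16603 CPM, beside HR-neg markers at 1801 CPM.

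**Figure D4:**
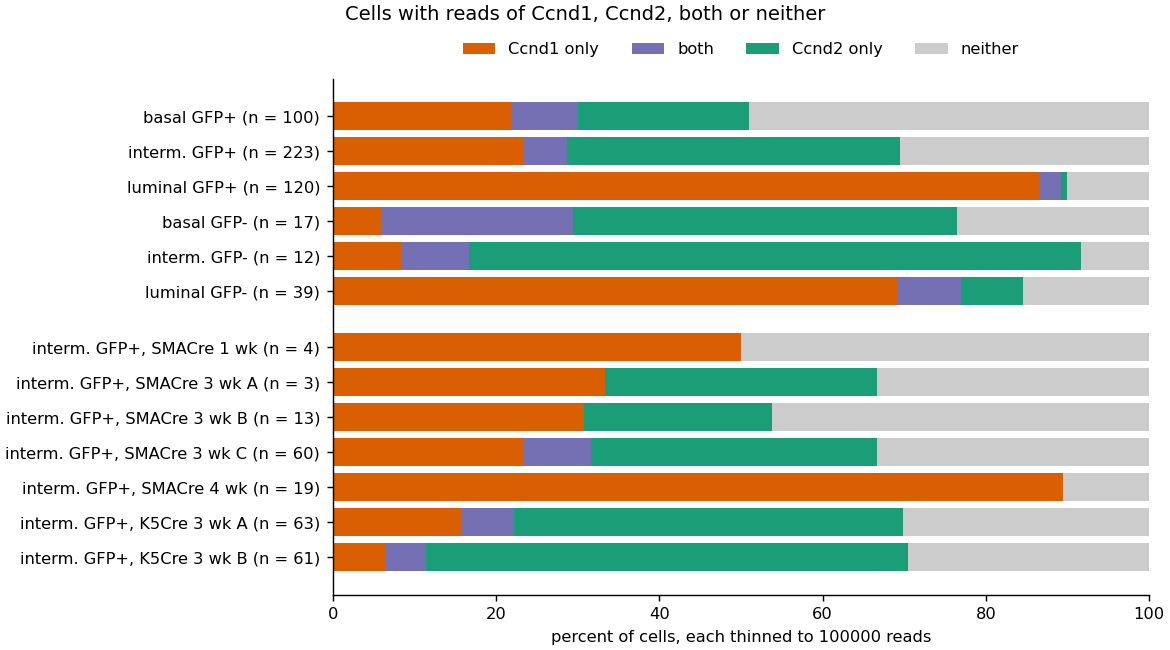
Percent of cells (x axis), each thinned to 100000 reads, with at least 1 read of Ccnd1 only, both Ccnd1 and Ccnd2, Ccnd2 only or neither, for the 6 groups of gate and GFP and for the intermediate GFP+ cells of each plate; n is the number of cells. Ccnd1 alone was read in 86.7% of luminal GFP+ cells and Ccnd2 alone in 40.8% of intermediate GFP+ cells, and the 4-week plate held no intermediate cell with Ccnd2.

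The HR-neg markers of intermediate GFP+ cells were set beside their D cyclin reads on the 3 plates with at least 60 such cells, where cells with Ccnd1 alone came before those with Ccnd2 alone in each pair of values. The median summed level per cell was 2601 against 997 CPM on K5Cre plate A, 14903 (4 cells) against 384 CPM on K5Cre plate B and 1106 against 718.3 CPM on SMACre 3-week plate C. Cells with neither gene held 1313, 688 and 1376 CPM and those with both 1454, 3210 and 3829 CPM on these plates, so cells with neither lay above those with Ccnd2 alone on all 3 plates and above those with Ccnd1 alone on plate C. Basal markers were at 7049 against 9686 CPM, 2811 against 5320 CPM and 7661 against 7926 CPM in the same order. Cdkn1a did not follow one direction, with medians of 618 against 586, 321 against 307 and 467 against 963 CPM. These are descriptions over cells that share a plate, without a test.

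The share of cells with at least 1 read was taken over the pooled cells of each gate. Ccnd1 was read in 30% of 100 basal GFP+ cells (95% Clopper-Pearson interval 21.2 to 39.98%), 28.7% of the intermediate GFP+ cells (22.9 to 35.1%) and 89.2% of 120 luminal GFP+ cells (82.2 to 94.1%). Ccnd2 was read in 29% (20.4 to 38.9%), 46.2% (39.5 to 52.97%) and 3.33% (0.917 to 8.31%) of them. Cdkn1a was read in 80% (70.8 to 87.3%), 95.1% (91.3 to 97.5%) and 55% (45.7 to 64.1%). The plates did not all follow the pooled shares: on the SMACre 4-week plate Ccnd1 was read in 89.5% of intermediate and 86.3% of luminal GFP+ cells and Ccnd2 in 0 and 3.92%. On the 1-week plate Ccnd2 was read in 0 of 4 intermediate and 1 of 8 luminal cells, and on K5Cre plate B Cdkn1a was read in 83.3% of basal, 93.4% of intermediate and 5 of 5 luminal cells. In GFP- cells Ccnd1 was read in 5 of 17 basal, 2 of 12 intermediate and 30 of 39 luminal cells, and Ccnd2 in 12, 10 and 6 of them. Without thinning, in the full reads, the shares were 45% and 93.3% for Ccnd1 in basal and luminal GFP+ cells and 37% and 5.83% for Ccnd2. The intervals treat the pooled cells as independent and leave out the spread between plates of unequal size, so they do not test a difference between gates. Ccnd1 in intermediate GFP+ cells, for example, was read in 11.5% of 61 cells on K5Cre plate B and 89.5% of 19 cells on the 4-week plate. Reads without molecular identifiers are also not independent molecules.

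The kinases were read in 49% or more of the GFP+ cells of each gate. Cdk4 had reads in 65% of basal, 78.9% of intermediate and 73.3% of luminal GFP+ cells, and its level was 161.5 ± 75.3, 181.7 ± 150 and 165.1 ± 94.5 CPM. The lowest and highest intermediate values, 40.8 and 448 CPM, were both on plates with 3 or 4 cells in that gate. Cdk6 had reads in 49%, 55.2% and 69.2% of the cells, with 70.1 ± 17.4, 116.97 ± 103.3 and 90.5 ± 47.3 CPM. No order of the gates was seen for either kinase beyond the spread between plates.

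Among the inhibitors, Cdkn1b (p27) was at 27.4 ± 15.95, 15.3 ± 8.95 and 40.7 ± 16.6 CPM in basal, intermediate and luminal GFP+ cells. Cdkn1c (p57), an imprinted gene, was read mainly in basal and GFP- intermediate cells: 14% of basal GFP+, 7.17% of intermediate GFP+ and 2.5% of luminal GFP+ cells had a read, beside 6 of 17 basal GFP-, 4 of 12 intermediate GFP- and 1 of 39 luminal GFP- cells. Its level in basal GFP+ cells was 0, 30.3, 9.78, 16.3 and 0 CPM on K5Cre plates A and B and the SMACre 1-week, 3-week B and 4-week plates, and on the K5Cre plates in basal GFP- cells it was 7.25 and 23.5 CPM. Intermediate GFP- cells held 19.5 and 15.8 CPM against 2.01 and 3.33 CPM in intermediate GFP+ cells of the same K5Cre plates, with all reads of the first value in 1 cell.

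Cdkn2b (p15) had no read in any basal cell or in the 12 intermediate GFP- cells. Taking 3 counts as the limit of a count of 0, up to 3% of the 100 basal GFP+ cells and 17.6% of the 17 basal GFP- cells may hold a read. The upper ends of the exact 95% Clopper-Pearson intervals are 3.62% and 19.5%, and both treat the pooled cells as independent and leave out the spread between plates. It was read in 7 intermediate GFP+ cells, 7 of 120 luminal GFP+ and 2 of 39 luminal GFP- cells, and its highest plate value, 36.9 CPM in luminal GFP+ cells of K5Cre plate B, came from 1 cell. Cdkn2a had reads in 1 kept cell in the full reads, an intermediate GFP- cell of K5Cre plate A with 7 reads, and batch 2 has no row for this gene. Neither gene passed the filter on low counts in any comparison. A gene without reads at this depth may still be expressed at a low level.

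By chase time, SMACre luminal GFP+ cells held Ccnd1 at 284.9, 900, 615 and 396 CPM after 1, 3, 4 and 6 weeks, with 1 plate of at least 3 cells at each time, and the values followed no single direction. Ccnd2 was at 1.59, 0, 26.8 and 0.0982 CPM and Cdkn1a at 208.1, 174.05, 139.1 and 108.1 CPM on those plates, lower on each later one. Basal GFP+ cells held Ccnd1 at 21.97, 125.4 and 121.998 CPM after 1, 3 and 4 weeks. Time, plate and batch cannot be told apart here.

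In the intermediate gate at 3 weeks, within the third batch, the SMACre plate C held Ccnd1 at 27.6 CPM beside 37.9 and 10.2 CPM on K5Cre plates A and B, Ccnd2 at 148.7 beside 222.9 and 127.3 CPM, and Cdkn1a at 813 beside 668 and 385 CPM. For Ccnd1 and Ccnd2 the SMACre value lay between those of the K5Cre plates.

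Cells with Mki67 reads, a gene made in cycling cells, were compared with cells without on 6 plates of GFP+ cells. Of the 443 GFP+ cells, 80 had at least 1 Mki67 read, of which 15 were basal, 43 intermediate and 22 luminal. Cdk4 was at 125.5, 193.2, 162.8, 340, 141.7 and 384 CPM in cells with Mki67 reads and at 98.9, 94.2, 126.7, 106.8, 66.6 and 278.6 CPM in cells without, on K5Cre plates A and B and the SMACre 1-week, 3-week B, 3-week C and 4-week plates. It was higher with Mki67 reads on 6 of 6 plates, as were 2.97% of the 15680 genes tested. The edgeR log2 fold change was 0.70 ± 0.20 (p = 0.0060, adjusted p = 0.536), against a median of -0.17 over all genes, and DESeq2, which called 2.69% of the genes, gave an adjusted p of 0.0290 (0.0290 to 1.00 over the alternatives). Without the 1-week plate it was 0.79 (edgeR adjusted p = 0.377). The estimate was 0.63 within the intermediate gate and 0.75 with at least 10 Mki67 reads required.

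Among the D cyclins, Ccnd3 was higher in cells with Mki67 reads on 5 of 6 plates (51.4, 48.8, 103.4, 65.3, 61.2 and 92.9 CPM with, 69.7, 41.94, 60.98, 39.7, 32.4 and 64.7 CPM without, edgeR log2 fold change 0.32 ± 0.21, and 0.26 without the 1-week plate). Within the intermediate gate alone this difference was -0.001. Ccnd1 was at 13.1, 52.8, 202.2, 768, 48.8 and 545 CPM with and at 55.6, 25.04, 42.9, 106.2, 18.7 and 431 CPM without. Its log2 fold change was 0.93 ± 0.54 over all gates (0.65 without the 1-week plate) and -2.19 within the intermediate gate, where 3 plates could be used, so that both the gates and the plates differed between these fits. Ccnd2 was higher with Mki67 reads on 3 of 6 plates.

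Cdkn1a was at 608, 318, 206.3, 248.2, 934 and 112.8 CPM with and at 618, 386, 381, 461, 762 and 210 CPM without Mki67 reads. It was lower on 5 of 6 plates, with an edgeR log2 fold change of -0.58 ± 0.21 (p = 0.020, adjusted p = 0.616), which was -0.05 within the intermediate gate and -0.48 without the 1-week plate (adjusted p = 0.645). No member passed the edgeR test here, where 0.0191% of the genes did (Mki67, which defined the groups, Cdc20, an activator of the anaphase-promoting complex with a log2 fold change of 6.14 ± 0.67 and an edgeR adjusted p of 0.030, and Ube2c, a ubiquitin-conjugating enzyme of mitosis, at 4.37 ± 0.47, named after its value was seen), and 6.98% had an unadjusted p under 0.05. The median depth of cells with Mki67 reads was above that of cells without on each of the 6 plates, from 533786 against 503019 reads on genes on the 1-week plate to 1974740.5 against 1571591 on K5Cre plate B. At 100000 reads a cell, Cdk4 was read in 86.7, 100, 88.9, 83.3, 81.2 and 100% of cells with and in 72.9, 80.4, 58.5, 60.6, 72.7 and 82.7% of cells without Mki67 reads on the 6 plates in the order above. Ccnd1 was read in 13.3, 12.5, 55.6, 75, 50 and 81.8% of cells with and in 27.1, 19.6, 24.5, 39.4, 25 and 82.7% of cells without. The share was higher with Mki67 reads on 6 of 6 plates for Cdk4 and on 3 of 6 for Ccnd1.

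**Figure D5:**
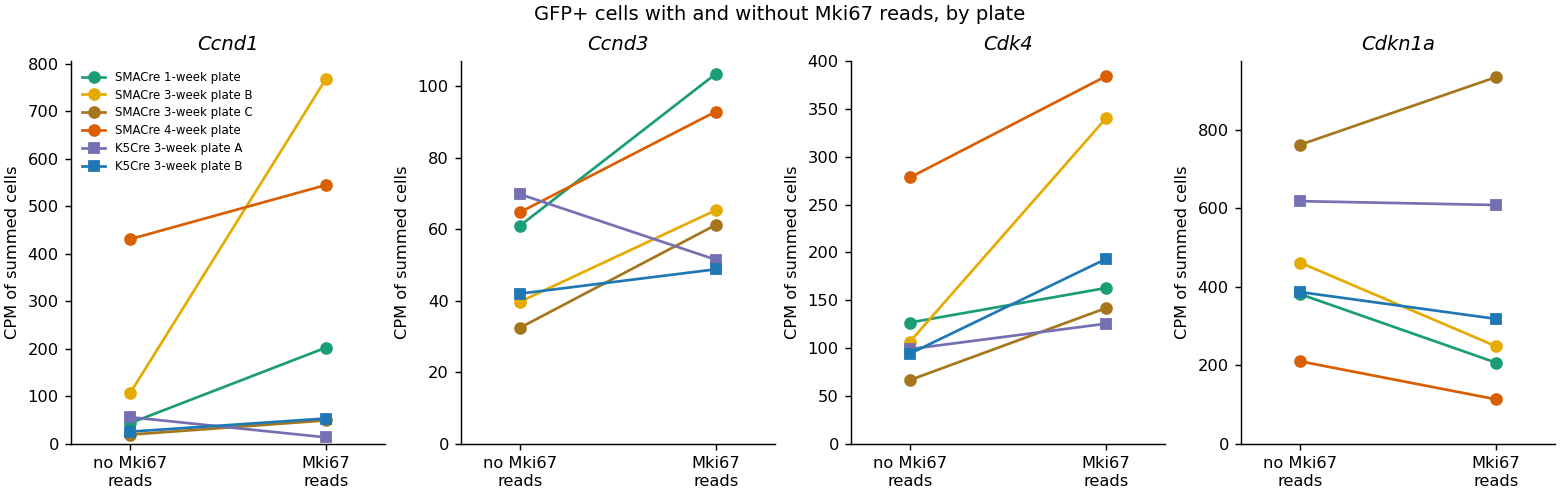
Counts per 1000000 reads (CPM) of Ccnd1, Ccnd3, Cdk4 and Cdkn1a in GFP+ cells without (left) and with (right) Mki67 reads; 1 line is 1 plate. Cdk4 was higher with Mki67 reads on all 6 plates and Cdkn1a lower on 5, with the SMACre 3-week plate C going the other way.

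The genes around the members in the pathway did not pass the edgeR test in the gate comparisons either. Of the other INK4 genes, the pocket proteins and the E2F factors with their partners, 11 of 15 genes were tested between luminal and basal GFP+ cells and 0 were called, with a median log2 fold change of 0.00. Cdkn2d, which encodes the INK4 protein p19, had the smallest p in that list, at 6.25 ± 6.08 CPM in luminal and 47.3 ± 27.7 in basal GFP+ cells, lower on 5 of 5 plates (log2 fold change -3.48 ± 0.77, edgeR adjusted p = 0.112). Of the later cyclins and their kinases 0 of 11 tested were called (median 0.67), of the genes of cyclin D turnover and of upstream factors 0 of 6 (median 0.05), and of p53 targets 0 of 11 (median -0.78, beside -1.04 for Cdkn1a). Myc, a regulator upstream of Ccnd2 and Cdkn1a, was at 252.5 ± 124.5 CPM in luminal and 651 ± 368 in basal GFP+ cells, lower on 5 of 5 plates (log2 fold change -1.37 ± 0.33, edgeR adjusted p = 0.135). Of 10 genes induced by tissue dissociation, 0 were called, and their median was -0.57 between luminal and basal cells. The part of dissociation in the Cdkn1a difference was not tested. Of the proliferation genes 0 of 11 tested were called (median 1.75), and of Notch1 and its targets 0 of 5 (median 0.55). In the same comparison the edgeR test called 3 of 10 basal markers lower (Krt14, Acta2 and Cnn1) and 6 of 10 HR-neg markers higher (Elf5, Kit, Aldh1a3, Ltf, Krt8 and Krt18).

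In cells with Mki67 reads 2 of 11 proliferation genes tested were called, Mki67 itself and Cdc20, and 0 of 15 INK4, pocket protein and E2F genes, with E2f1 at 15.4 ± 18.02 CPM with and 5.46 ± 10.3 without (log2 fold change 2.56 ± 0.69, edgeR adjusted p = 0.532).

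Over 27 sums of at least 5 cells of 1 plate and group, and among 10883 genes with a mean of at least 5 CPM, the genes with a pattern most like that of Ccnd1 were Sulf2, Pla2g4a and Aldoc (Pearson r of log2(CPM + 1) 0.88, 0.88 and 0.87). For Ccnd2 they were Mreg, Igfbp4 and Arhgdib (0.86, 0.85 and 0.83), and for Cdkn1a Dusp7, Sfn and Rcan1 (0.80, 0.77 and 0.76). Those of Cdk4 were Hnrnpab, Rex1bd and Yrdc (0.73, 0.72 and 0.71), of Cdk6 Marc2, Eif1ax and Nsun2 (0.75, 0.75 and 0.73) and of Ccnd3 Ift172, Copb1 and Wbp1l (0.69, 0.67 and 0.65). Those of Cdkn1b were Rab29, Harbi1 and Limch1 (0.70, 0.70 and 0.69) and those of Cdkn1c Spsb4, Plxna2 and Rian (0.75, 0.74 and 0.74). Within the members, Ccnd1 was negatively related to Ccnd2 (r = -0.72) and to Cdkn1a (r = -0.70) over these sums. The sums differ in gate and share plates, batches and depth. These values of r therefore carry the gate differences given above and are no separate result, and they describe the sums without a test.

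The 6-week plate had been sequenced 2 times, and since both runs read the same libraries they give the sequencing error of the members only. The 44 cells that passed the filters in the first run were looked up in the second, to which the filters were not applied. In the first and second run Ccnd1 was at 361 and 346 CPM, Cdkn1a at 133.8 and 133.2 and Cdk4 at 90.7 and 87.9. Cdk6 was at 141.99 and 145.2, Ccnd3 at 74.02 and 71.1 and Cdkn1b at 37.4 and 40.8 CPM. Ccnd1 was read in 40 of the 44 cells in both runs and in 2 in only one of them.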

How the data were processed

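Smart-seq2 libraries of single sorted mouse mammary cells were sequenced in 3 batches on 9 plates, 1 of them a repeat run that was left out. The authors trimmed the reads with Trim Galore 0.6.5, aligned them with STAR 2.7.7a to GRCm38 (mm10) and counted them per gene with HTSeq 0.13.5, and the deposited values are raw counts per gene and cell. Cell annotations (gate, GFP, Cre line, chase) are deposited labels of unit other than a measurement and set the groups. The 10 members and the gene lists were chosen with earlier results of these data known.

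Following the study's stated filters, a cell was dropped if 10% or more of its reads were mitochondrial, if it had no more than 1400 genes or 100000 reads, if Epcam had under 2 reads (stromal) or if Dcpp1 had over 1 (salivary). These left 68.7% of 744 cells, a number that differs from the study's, and no doublet caller was run on these sorted wells. The Dcpp1 filter alone took the cells from 688 to 511. It took batch 1 from 253 to 119 cells and batch 2 from 183 to 140, and left batch 3, with all K5Cre plates, at 252. This loss cannot be told apart from batch, and whether every dropped cell was salivary was not tested. Symbols were matched for 37893 of 39154 Ensembl IDs. Counts were summed per plate and group (at least 3 cells) and tested with edgeR 4.0.16 (R 4.3.3; quasi-likelihood F test, TMM, default filterByExpr, plate as block, Benjamini-Hochberg over all genes tested, threshold 0.05), checked on simulated counts. Whether plates hold separate animals beyond what the labels say is not known, so p-values measure the spread between these plates. Pairing comes from the plate: cells of 1 plate come from the same mice. The standard errors printed with edgeR fold changes were derived, as the absolute log2 fold change divided by the square root of the F statistic, and are approximate. DESeq2 1.42.0 and limma 3.58.1 (log2 of mean CPM) were alternatives, as were other units, filters and leaving out each plate. For detection, each cell was thinned to 100000 reads and exact 95% intervals were used. Depth was 103081 to 3363298 reads per cell. Named beside the members were list genes that passed the test or that stood out among their list (Cdkn2d, Myc and E2f1, picked after their values were seen), and the 3 genes most correlated with each member of at least 5 CPM. Exonic lengths, overlaps and coding sequence are from the GRCm38 annotation.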

Additional observations from a re-analysis of the deposited data

Results flagged for a closer look

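The values of each member were examined over the plates of every group of 4 to 10 plates, 35 groups in all. A plate far from the others was sought by Dixon's ratio, and 7 were found. For normally distributed values about 1 in 20 groups would be flagged. CPM values are skewed and some of these groups hold plates at 0, so the 7 flags cannot be set against that rate. Luminal GFP- cells, with 3 to 7 cells a plate, held 5 of the 7. Ccnd1 was at 574 CPM on the SMACre 1-week plate, with 286.97 on the next, and Cdkn1b was at 195.7 CPM on the same plate, with 44.1 on the next. Ccnd3 was at 168.5 CPM on the SMACre 3-week plate B, with 80.7 on the next. Cdkn1c was at 5.06 CPM on K5Cre plate A, from 1 cell, and at 0 on the other 6 plates, and Cdkn2b was at 10.4 CPM on K5Cre plate A, with 0.312 on the next. Cdkn2b was at 11.3 CPM in intermediate GFP+ cells of the SMACre 3-week plate B, from 1 cell, with 2.92 on the next, and at 36.9 CPM in luminal GFP+ cells of K5Cre plate B, also from 1 cell, with 5.01 on the next.

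Between luminal and basal GFP+ cells Cdk4 was lower in luminal cells on both K5Cre plates and higher on all 3 SMACre plates. With luminal first, it was at 50.2 against 91.9 CPM on K5Cre plate A and 173.5 against 188.03 CPM on plate B. On the SMACre 1-week, 3-week B and 4-week plates it was at 137.1 against 105.5, 266.4 against 143.8 and 281.1 against 278.5 CPM. The levels were thus close on K5Cre plate B and nearly equal on the 4-week plate. Cdk4 here was the only case flagged for opposite directions between the Cre lines. The log2 ratio of the mean CPM over plates, with 1 added to each mean, was -0.321 for K5Cre and 0.373 for SMACre. This difference was not tested, and these K5Cre and SMACre plates were sequenced in different batches.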

How the results depend on the processing

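The share of tested genes called depended on the tool and filter. For luminal against basal GFP+ cells it was 0.562%, and 11.3% with DESeq2, 3.08% without the filter on low counts, 1.13% with a Cre line at a chase time as the unit, 1.07% without the plate block, 2.96% with cells thinned to 100000 reads, 2.01% with up to 100 Dcpp1 reads allowed, 3.13% in limma with each cell weighted equally and 0.0407 to 0.361% with 1 plate left out. Leaving out any of the 5 plates lowered the count of 68 genes, to 5 without the SMACre 3-week plate B, 11 without the 1-week or 4-week plate, 22 without K5Cre plate A and 44 without K5Cre plate B. For intermediate against basal it was 0%, and 0.486% with DESeq2 and 0.0752% without the filter. For luminal against intermediate it was 0%, and 6.67, 1.01, 0.217, 0.644, 0.375 and 0.506% with DESeq2, no filter, no block, thinning, up to 100 Dcpp1 reads and limma, 0.0628% with at least 5 cells per group and plate, and 0 to 0.0628% with 1 plate left out (8 genes without the SMACre 1-week plate and 1 without K5Cre plate A). For luminal GFP+ against GFP- it was 0%, and 2.14% with DESeq2, 0.281% without the filter and 0.00875% with up to 100 Dcpp1 reads. For Mki67 reads it was 0.0191%, and 2.69, 0.118, 0, 0.0854 and 0.0462% with DESeq2, no filter, the Cre line at a chase time as unit, thinning and limma, 0% in the intermediate gate alone, 0.00867% with plate and gate as the unit and 0.00621 to 0.0501% with 1 plate left out (8 genes without the SMACre 1-week plate, and 1 without K5Cre plate A or the SMACre 3-week B, 3-week C or 4-week plate). The cause of these differences was not tested.

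Over 13 alternatives the log2 fold change between luminal and basal GFP+ cells ran from 2.92 to 4.99 for Ccnd1 (adjusted p up to 0.370, called in 4), from -6.17 to -3.52 for Ccnd2 (up to 0.396, called in 4) and from -1.11 to -0.93 for Cdkn1a (0.0063 to 0.334, called in 1). From the intermediate to the luminal gate it ran from -1.77 to -1.47 for Cdkn1a (adjusted p up to 0.554, called in 2) and from 1.75 to 3.08 for Ccnd1 (up to 1.00, called in 2). Of the members' fold changes under all alternatives, 461 kept their direction and side of the threshold, 14 passed it where they had not and 61 changed sign. The changes of sign between luminal and basal cells were those of Ccnd3 (0.094 with the Cre line at a chase time as unit, 0.012 without the block, 0.18 thinned, 0.10 in limma, -0.29 to 0.26 with 1 plate left out), Cdk4 (0.068, 0.0023 and 0.10 with that unit, no block and limma, -0.28 to 0.16 with 1 plate left out) and Cdk6 (0.0011 without the block, 0.10 thinned, 0.15 with up to 100 Dcpp1 reads, 0.15 in limma, -0.22 to 0.069 with 1 plate left out). Between intermediate and basal cells they were those of Cdk4 (-0.091) and Cdk6 (-0.23) with at least 5 cells per group and plate, of Cdkn1b (0.19) and Cdkn1c (1.07) with up to 100 Dcpp1 reads, and with 1 plate left out -0.091 to 0.60 for Cdk4, -0.23 to 0.44 for Cdk6 and -2.16 to 1.098 for Cdkn1c. Between luminal and intermediate cells they were those of Ccnd3 (0.033 thinned, 0.079 in limma, -0.40 to 0.16 with 1 plate left out) and Cdk6 (0.32 with at least 5 cells, -0.59 to 0.32 with 1 plate left out). Between luminal GFP+ and GFP- cells they were those of Ccnd2 (0.35 without the block, 0.57 with at least 5 cells, -2.37 to 0.57 with 1 plate left out), Ccnd3 (0.041 with up to 100 Dcpp1 reads), Cdkn1b (-0.040 with DESeq2, -0.41 without the block, -0.31 thinned, -0.13 with up to 100 Dcpp1 reads, -0.046 in limma, -0.19 to 0.39 with 1 plate left out), and with 1 plate left out Cdk4 (-0.20 to 0.34) and Cdk6 (-0.28 to 1.098). With Mki67 reads they were those of Ccnd2 (0.23 with the Cre line at a chase time as unit, 0.27 without the block, 0.25 with up to 100 Dcpp1 reads, 0.92 with plate and gate as unit, -0.71 to 0.16 with 1 plate left out), Cdk6 (0.080 in limma, 0.44 with plate and gate), Cdkn1c (0.37, 0.69, 0.015 and 0.55 with the Cre line at a chase time as unit, up to 100 Dcpp1 reads, the intermediate gate and plate and gate, -2.0035 to 0.73 with 1 plate left out), and in the intermediate gate Ccnd1 (-2.19), Ccnd3 (-0.001) and Cdkn1b (-0.0004).

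Samples were paired by plate, whose cells come from the same mice, with the plate as a block, and the values without it are given above. By replicate number no paired analysis was possible because the numbers name single cells in accession order. Depth limits the low members: Cdkn1c, Cdkn2a and Cdkn2b rest on few cells, and 11 of 60 detection shares moved out of their interval between thinned and full reads. With 5 or 6 plates a comparison and few cells in some, differences under about the printed errors cannot be seen. Differences well above the printed errors also did not pass the edgeR test. An example is Cdkn1a between luminal and intermediate GFP+ cells (log2 fold change -1.61 ± 0.30, edgeR adjusted p = 0.167).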
